A study of Danio rerio with 16 samples.

Results

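Cluster 10 is 1 of 10 groups of cells that the authors separated by single cell RNA sequencing (scRNA-seq) of dissociated zebrafish testes. Its members here are all transcripts in the deposited list of that cluster, 2835 of the 4916 transcripts listed for any cluster. Each list gives the percentage of cells with a transcript in the cluster and in a second group of cells. The second group was nearly the same from list to list: between cluster 10 and each other cluster, its shares correlated at 0.960 to 0.999 across shared transcripts and differed by a median of 0.4 to 4.9 percentage points, whereas the shares in the cluster itself correlated at -0.258 to 0.962. The study's methods instead describe a comparison of conditions within each cluster, where the second group would change from list to list. Given the near-constant second share, the lists were read here as setting each cluster against all other cells. All shares below rest on this reading, and the second share is called the share in other cells. In cluster 10, 685 transcripts had a higher share than in other cells, 2148 had a lower share and 2 had equal shares. The lists pool the cells of control and exposed fish, and hold neither the number of cells in a cluster nor the UMIs per cell. In every list the larger of the 2 shares of a transcript was at least 10.1%. A transcript under this floor is not listed, although some cells may hold it. Common transcripts can be unlisted as well: pnrc2, found in 86.0% of cells outside cluster 10, is listed only for clusters 4 and 10. Not listed therefore does not mean rare.

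The cells came from adult fish of 1.5 years of age. TCDD, a dioxin that activates the aryl hydrocarbon receptor (AhR), had been given for 1 h at 3 and again at 7 weeks after fertilization, at 50 pg/mL in 0.1% DMSO, and control fish had received DMSO. The GEO labels give the TCDD dose for control fish as well, and the exposure in the study's methods was used. Each suspension of dissociated testes was divided, and 1 portion was used for scRNA-seq and another for bulk RNA-seq (bulk-seq). Counts of the single cells were summed to pseudo bulk-seq libraries of control (CP, n = 3) and TCDD-exposed testes (TP, n = 2), and the bulk-seq libraries are CB (n = 3) and TB (n = 2). TPxCP and TBxCB denote the comparison of exposed with control testes in each method. About 5000 cells were loaded for each scRNA-seq library. The labels do not state how many fish entered a library, so the p-values measure the spread between these suspensions.

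In the testis, spermatogonia divide by mitosis, replicate their DNA a last time and enter meiosis as spermatocytes, which pair their chromosomes along the synaptonemal complex. The haploid round spermatids that result no longer replicate DNA. They assemble a flagellum, condense their chromatin and shed most of their cytoplasm as they elongate into sperm.

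Genes of the flagellum were found in a larger share of cluster 10 cells than of other cells, and genes of DNA replication, ribosomes and respiration mostly in a smaller share. Of the 29 symbols on the marker list of round and elongating spermatids, 11 had a higher share in cluster 10 and none a lower share. Among these were ropn1l, rsph9, spag6, spata4, meig1, rsph4a, tekt1, spata17, tekt4 and tssk6. Of the sperm list, 4 transcripts were higher, namely enkur, ropn1l, izumo1 and tmem81, and gapdhs was lower. All 10 listed transcripts of spermatogonia and both of spermatogonial stem cells were lower. Of the spermatocyte list, 2 were higher and 8 lower. No transcript of the Leydig cell, smooth muscle, endothelial or erythrocyte lists was listed. The one listed for Sertoli cells was dmrt1, with a lower share, and the one for leukocytes was rag2, with a higher share. The marker lists overlap: dmrt1 is also on the spermatogonia list, and ropn1l is on both the spermatid and the sperm list. On these markers the cells of cluster 10 are spermatid-like. Among its 10 clusters the study names round and elongating spermatids and 2 of sperm, and it reports that 8 remained in exposed testes. It does not say which numbers these are, so cluster 10 could be a sperm cluster. How many of its cells came from exposed fish is not given. The number of higher markers does not separate cluster 10 from clusters 7, 8 and 9, in which 12, 11 and 12 of the spermatid list were higher. A marker that did differ was tssk6, found in 57.0% of cluster 10 cells and 16.4% of cluster 9 cells. It is not listed for clusters 7 and 8. No marker of the spermatid list was among the 10 transcripts with the largest ratio of shares, where tssk6 ranked 13. A stage within spermiogenesis was not assigned on tssk6 alone.

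Among the flagellar genes, enkur, which encodes an inner protein of ciliary microtubules, was found in 99.7% of cluster 10 cells and in 43.4% of other cells. A further microtubule inner protein gene, pierce1, had shares of 97.8% and 42.5%. The shares of rsph9, a radial spoke head gene, were 93.5% and 33.0%, and those of spag6, a component of the central apparatus, were 89.2% and 35.0%. Of the list of cilium and flagellum genes, 54 transcripts were higher in cluster 10 and 5 were lower. The list was not particular to cluster 10, as 60, 65 and 60 of its transcripts were higher in clusters 7, 8 and 9. Transcripts for the meeting of sperm and egg were also higher: izumo1, a sperm protein needed for fusion with the egg, was found in 55.7% of cluster 10 cells against 24.1%, and tmem81, a sperm membrane protein gene, in 52.4% against 19.4%. The share of izumo1 was larger in clusters 7, 8 and 9, at 86.6, 88.9 and 67.3%.

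Synaptonemal complex genes went in both directions. The transverse filament gene sycp1 was found in 98.6% of cluster 10 cells and 56.1% of other cells, whereas the axial element gene sycp3 was found in 10.3% and 76.7%. The central element gene syce2 was found in 84.9% and 78.7%. The meiotic recombinase gene dmc1 was found in 1.9% against 50.9%. Its share was 49.6% in cluster 7, 12.8% in cluster 8 and 2.6% in cluster 9.

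Genes of growth and division mostly had lower shares. All 34 listed DNA replication transcripts were lower, with a median share of 1.4% in cluster 10, and pcna, the sliding clamp of the replication fork, was found in 1.9% of cells against 55.0%. Of the ribosomal protein transcripts, 77 were lower and 1 was higher, rps27l with 98.9% against 71.7%. Lower did not mean rare here, as the median share of the ribosomal protein transcripts was 33.0% in cluster 10 and rpl37 was found in 78.1% of its cells. Of the nuclear genes of the respiratory chain, 51 were lower and 3 higher, with a median of 15.4%. Histone and HMG genes were lower in 13 cases. Of the proteasome and ubiquitin genes 21 were lower, and ube2b, a ubiquitin-conjugating enzyme gene needed for sperm formation in the mouse, was higher with 94.1% against 30.9%. Heat shock and chaperone genes were lower in 17 cases and higher in 2, one of them dnajb13, a co-chaperone of the axoneme, with 76.2% against 28.7%.

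The 10 transcripts with the largest excess in share were mostly of little-known genes. XR_001800470 led with 97.6% against 21.5%, followed by XR_660386 with 79.5% against 9.7%. Those with a known product were tp53inp2a, a gene of autophagy, with 98.4% against 28.6%, mov10a, an RNA helicase gene, with 94.3% against 27.2%, and nup42, a nucleoporin gene, with 92.4% against 26.1%. The largest deficits were those of the chromatin protein genes hmgb1b, at 6.8% against 83.7%, and hmgb1a, at 14.3% against 86.3%, of pnrc2, a nuclear receptor coactivator gene, at 13.5% against 86.0%, and of the ribosomal protein gene rps26, at 7.8% against 79.2%. Of the higher-share transcripts, 44.2% are predicted records of RefSeq (accessions in XM or XR), compared with 23.0% of the lower-share transcripts.

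The median share of listed transcripts in their own cluster was 30.0% in cluster 7, 20.2% in cluster 8, 8.8% in cluster 9 and 4.3% in cluster 10. These medians are over lists of different make-up: 1036 of 2629 transcripts were lower in cluster 7 and 2148 of 2835 in cluster 10. Higher-share members of cluster 10 had a median of 34.1% and lower-share members one of 1.9%. Among transcripts listed for cluster 10 and the other cluster, the median difference, cluster 10 minus the other, was -13.2 points for cluster 7. It was -7 points for cluster 8 and -0.6 points for cluster 9. Of the 2148 lower-share members of cluster 10, 1466 were found in under 5% of its cells. A low share can reflect few UMIs per cell as well as a low level of the transcript, and the part of depth in these shares was not tested.

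**Figure D1:**
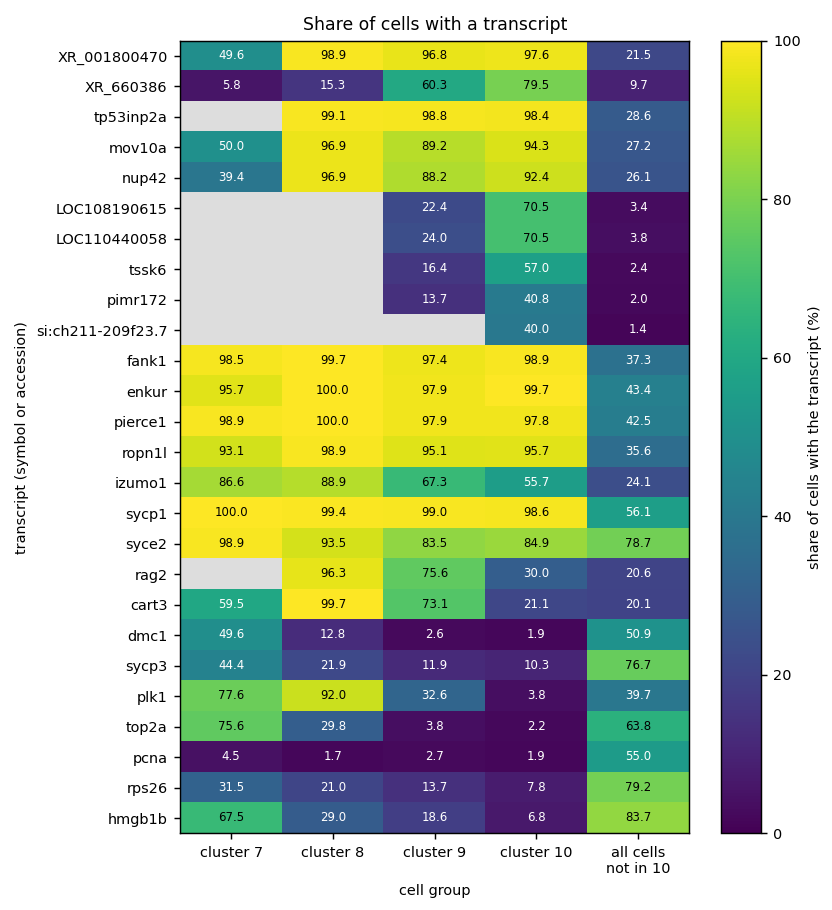
Percentage of cells with a transcript (colour and number) for 26 transcripts in clusters 7, 8, 9 and 10 and in all cells outside cluster 10, with grey where a cluster's list does not hold the transcript. Grey does not mean absence from the cells. The flagellar genes enkur and pierce1 stay near 100% in all 4 clusters, and plk1 and cart3 drop from cluster 8 to cluster 10. The transcripts of tssk6 and pimr172 are listed for clusters 9 and 10 but not for 7 and 8.

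Cluster 9 was the most like cluster 10. Of the 685 higher-share members, 607 were also higher in cluster 9, which is 88.6% of the members and 70.0% of the higher-share transcripts of cluster 9. With cluster 8, 577 were shared, 84.2% and 38.9% of the respective lists, and with cluster 7, 414 were shared, 60.4% and 26.0%. As clustering used the same genes, these overlaps are descriptions and no test of a difference between clusters is given. Among the 2396 transcripts listed for both clusters 9 and 10, 664 had a larger share in cluster 10, 1674 a smaller share and 58 the same share, with a median difference of -0.6 points.

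In all, 49 transcripts were at least 20 points below cluster 9. The neuropeptide gene cart3 was found in 21.1% of cluster 10 cells and 73.1% of cluster 9 cells, and rag2, known from antigen receptor recombination, in 30.0% and 75.6%. Genes of mitosis were among them. The spindle midzone gene prc1b had shares of 12.2% and 53.9%, the cyclin gene ccnb1 4.9% and 41.7%, and the kinase gene plk1 3.8% and 32.6%. The intraflagellar transport gene ift52 had 11.1% and 49.1%.

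In the other direction, 25 transcripts were at least 20 points above cluster 9. Of these, 22 are predicted records, and only 2 are listed for cluster 8 and 2 for cluster 7. LOC108190615 was found in 70.5% of cluster 10 cells and 22.4% of cluster 9 cells, LOC110440058 in 70.5% and 24.0%, and LOC100332973 in 72.7% and 30.7%. The best-known of them was tssk6, a testis-specific serine kinase gene needed for sperm function in the mouse, with 57.0% and 16.4%. Genes of the pimr family, which resemble the Pim serine/threonine kinases, recurred: 12 transcripts were listed for cluster 10, all with a higher share, compared with 5 for cluster 9 and 0 for each of clusters 1 to 8. Their shares ran from 14.1% to 40.8% in cluster 10 and from 1.1% to 8.9% in other cells. A share under the floor of the lists would leave a pimr transcript unlisted for another cluster.

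A set of 57 higher-share transcripts was listed for none of clusters 7, 8 and 9, and none of the 57 was in any other list either. Of these, 48 are predicted records and 24 have a symbol. The largest excess was that of si:ch211-209f23.7, in 40.0% of cluster 10 cells and 1.4% of other cells. XM_021481148 was found in 39.5% and 1.6%, si:dkey-58i8.5 in 33.2% and 1.5%, LOC100151089 in 31.9% and 1.2%, and pimr168 in 27.6% and 1.3%. The set also holds klhl10a, the fish counterpart of a mouse gene for a ubiquitin ligase adaptor of spermatids, with 28.4% and 3.2%. The second share of these transcripts reached 8.9% at most. Given the floor of the lists, a low second share partly follows from the choice of these 57. Some cells of other clusters can still hold them.

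The listed transcripts were then followed in pseudo bulk-seq, to ask how the transcripts of cluster 10 differed between exposed and control testes. Counts in the TPxCP table totalled 3490409 to 9987998 per library over 6847 rows, and no value was under 30 in any library. A transcript with few counts in TP could therefore not enter the table, and 133 of the 685 higher-share members are missing from it, 40 of the 57 listed for cluster 10 alone among them. Of the 2148 lower-share members, 2141 are in it. Levels are given as CPM, counts scaled to a common library total with TMM factors, and fold changes as the fitted log2 ratio of TCDD over control from edgeR's quasi-likelihood test with Benjamini-Hochberg adjustment over all rows. A call is an adjusted p under 0.05. The cells summed here are those that were clustered, and in summed counts fewer cells of a type and less RNA per cell cannot be told apart. The study reports from its clusters that sperm and spermatids made up a smaller proportion of exposed than of control cells. It ties no cluster number to a cell type, and the part of cell numbers in the changes below was not tested.

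Transcripts with a higher share in cluster 10 fell with TCDD. Of the 552 tested, 502 were called lower in TP and none higher, where 19.4% of all rows were called lower and 8.69% higher. Their median log2 fold change was -2.30, compared with 0.03 over all rows. In 527 of the 552 both TP libraries lay below all 3 CP libraries, as they did in 32.8% of all rows. Of the 2141 lower-share members, 334 were called higher and 269 lower, with a median of 0.25, and 546 were called higher with the replicate number as a block. Which TP library was kept had a bearing on these counts: without TP replicate 2, 282 higher-share members were called lower, and without TP replicate 1, 371 were. The lower-share counts changed more, to 5 called higher and 34 lower without TP replicate 2, to 16 and 69 without TP replicate 1, to 79 and 147 without CP replicate 3, and to 673 and 348 without CP replicate 2.

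**Figure D2:**
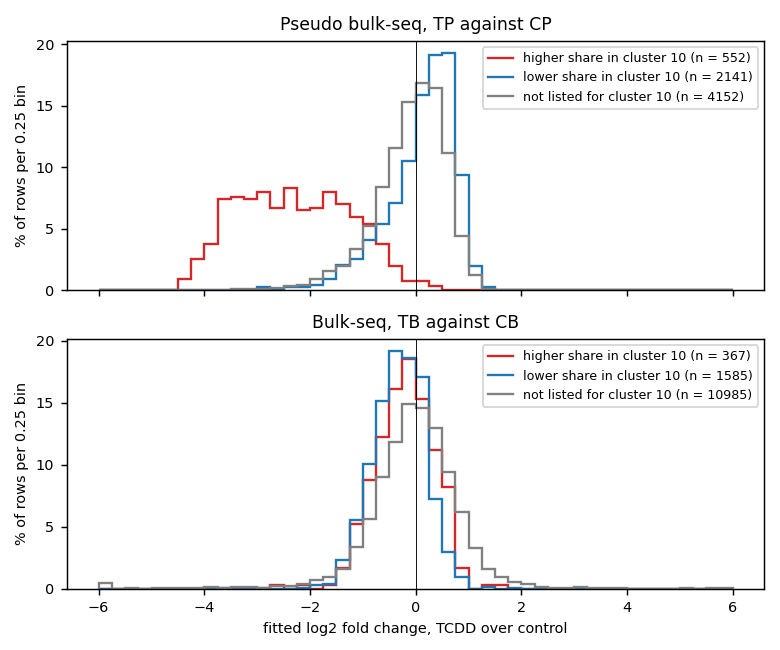
Distribution of the fitted log2 fold change of TCDD over control (x axis; y axis, percent of rows per bin) for transcripts with a higher share in cluster 10, with a lower share, and not listed for it, in pseudo bulk-seq (top) and bulk-seq (bottom), with the few values beyond the axis put in the outermost bins. The higher-share transcripts centre at -2.30 in pseudo bulk-seq and at -0.16 in bulk-seq, and the lower-share transcripts at 0.25 and -0.28.

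Flagellar transcripts fell together. All 48 tested members of the cilium and flagellum list with a higher share were called lower, with a median log2 fold change of -2.89. They are part of the higher-share members, of which 502 of 552 were called lower, where 19.4% of all rows were. The level of pierce1 was 1840, 957 and 1178 CPM in the 3 CP libraries and 65.3 and 73.8 CPM in the 2 TP libraries. The groups did not overlap, and the fitted log2 fold change was -4.25 (SE 0.337, adjusted p = 0.00166, edgeR). For enkur the CP libraries held 1453, 707 and 852 CPM and the TP libraries 118 and 77.0 CPM, again without overlap, with a log2 fold change of -3.37 (SE 0.386, adjusted p = 0.00189, edgeR). All 8 tested spermatid markers were called lower, with a median of -3.58. Among them ropn1l, whose product binds to the fibrous sheath and radial spokes, had 947, 459 and 550 CPM in CP and 57.8 and 49.3 CPM in TP. CP replicate 1 was the highest of the CP libraries for each of these 3 transcripts.

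The 4 sperm markers with a higher share were called lower as well, as were 502 of all 552 higher-share members tested and 19.4% of all rows. The level of izumo1 was 408, 196 and 234 CPM in CP and 16.7 and 13.5 CPM in TP, a log2 fold change of -4.21 (SE 0.389, adjusted p = 0.00166, edgeR). The glycolysis gene gapdhs is on the sperm list but did not mark late cells here. It was found in 97.6, 84.7 and 84.7% of the cells of clusters 1, 2 and 3 and in 23.8% of cluster 10 cells. Its level was 423, 409 and 381 CPM in CP and 452 and 572 CPM in TP, and it was not called (log2 fold change 0.34, adjusted p = 0.146, edgeR).

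The largest fall among all members was that of LOC110439783, found in 96.5% of cluster 10 cells. Its level was 954, 532 and 542 CPM in CP and 34.3 and 27.8 CPM in TP, a log2 fold change of -4.45. The fold changes of the next 9 ran from -4.42 to -4.14 and were those of ccdc166, lrrc51, armc3, pih1d2, pierce1, ckba, izumo1, XM_002667571 and fank1. Of these pih1d2 belongs to a family of assembly factors for axonemal dynein, and ckba encodes a brain-type creatine kinase. The transcript of fank1 was found in 98.9% of cluster 10 cells, and its level was 1559, 771 and 1130 CPM in CP and 71.4 and 59.5 CPM in TP.

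Of the synaptonemal complex transcripts, sycp1 and syce2 were called lower. For sycp1 the CP libraries held 3297, 1990 and 2320 CPM and the TP libraries 338 and 167 CPM, a log2 fold change of -3.33 (SE 0.385, adjusted p = 0.00191, edgeR). The level of syce2 was 1239, 850 and 1024 CPM in CP and 340 and 296 CPM in TP, a log2 fold change of -1.71 (SE 0.209, adjusted p = 0.00222, edgeR). The transcript of sycp3, which few cluster 10 cells held, had 1564, 1241 and 1704 CPM in CP and 1321 and 1211 CPM in TP. These ranges overlapped and sycp3 was not called (log2 fold change -0.25, adjusted p = 0.317, edgeR).

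**Figure D3:**
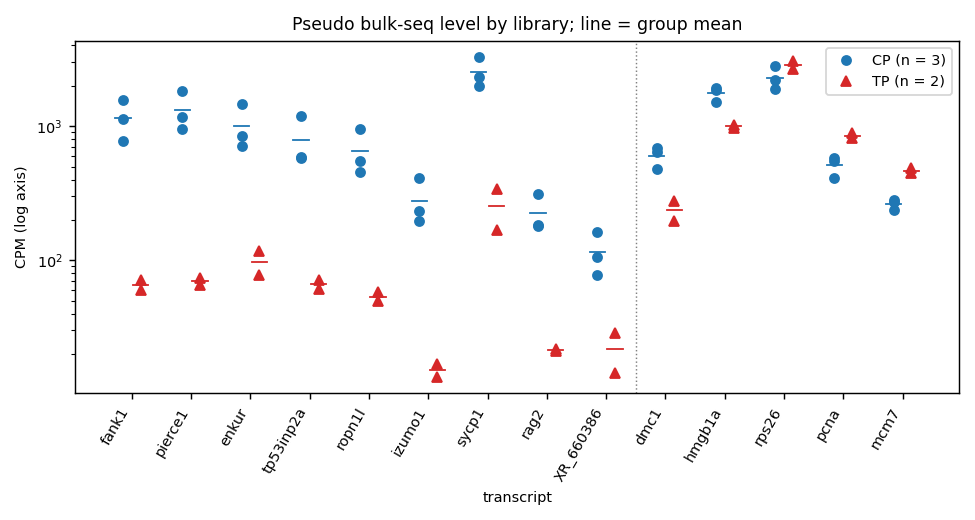
Level of 14 transcripts in each pseudo bulk-seq library (CPM, log axis), with CP as circles, TP as triangles and a line at the group mean. The 9 transcripts left of the dotted line have a higher share in cluster 10 and both TP libraries below all CP libraries, and those to the right have a lower share in cluster 10, where dmc1 and hmgb1a are lower in TP, pcna and mcm7 are higher, and rps26 overlaps.

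Few of the transcripts that set cluster 10 apart from clusters 7, 8 and 9 could be followed. Of the 399 members higher in all 4 clusters, 364 were tested, 361 were called lower, and their median log2 fold change was -2.77. Of the 25 that were at least 20 points above cluster 9, 8 were tested and 7 were called lower, and both TP libraries lay below all CP libraries in all 8. Over all rows, 19.4% were called lower and 32.8% had both TP libraries below all CP libraries. Of the 57 listed for cluster 10 alone, 17 were tested, of which 1 was called lower. As a share of library counts these 17 made up 0.0379, 0.0227 and 0.0296% in CP and 0.0222 and 0.0201% in TP. Among the 10 of the 57 with the largest excess in share, only XM_021468698 was in the table, with 35.1, 16.0 and 24.4 CPM in CP and 10.9 and 12.5 CPM in TP (log2 fold change -1.07, adjusted p = 0.0546, edgeR). Of the 12 pimr transcripts 7 were tested, and 2 were called lower, pimr67 with a log2 fold change of -1.32 and pimr53 with -1.64. The remaining 5 had fold changes from -0.75 to 0.34. A rare transcript that fell far in TP could not be in the table, so the tested rows do not show how the sets compare.

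The fall was also found among those lower-share members that were higher in cluster 8. Of these, 264 were tested and 166 were called lower, with a median log2 fold change of -0.88. Of all 2141 lower-share members tested, 269 were called lower, where 19.4% of all rows were. One example is prc1b, with 333, 208 and 259 CPM in CP and 83.4 and 86.5 CPM in TP. For cart3, a higher-share member whose share in cluster 10 was close to that in other cells, the log2 fold change was -3.79 (SE 0.314, adjusted p = 0.00166, edgeR), and for rag2, also a higher-share member, it was -3.39. Among lower-share members that were also lower in clusters 7, 8 and 9, calls went mostly in the other direction. Of 888 tested, 264 were called higher and 2 lower, with a median of 0.55, where 8.69% of all rows were called higher.

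Of the gene lists with a lower share in cluster 10, 16 of the 34 DNA replication transcripts were called higher and 1 lower, with a median of 0.61. The level of pcna was 408, 579 and 552 CPM in CP and 814 and 889 CPM in TP, a log2 fold change of 0.73 (adjusted p = 0.029, edgeR), and that of mcm7, a helicase subunit gene, was 237, 280 and 271 CPM in CP and 444 and 489 CPM in TP. Of the 10 spermatogonial transcripts, 8 were called higher, where 8.69% of all rows were. The spermatogonia and DNA replication lists share transcripts such as pcna and mcm6, so these counts are not independent. Of the 77 ribosomal protein transcripts 3 were called higher, with a median of 0.39. Of the 8 spermatocyte transcripts with a lower share, 5 were called lower, where 19.4% of all rows were. Among them was dmc1 with 637, 481 and 691 CPM in CP and 276 and 196 CPM in TP, a log2 fold change of -1.35. The largest rise of a named gene was that of lman2, a cargo receptor gene, with a log2 fold change of 1.45, and that of mov10l1, a helicase gene of the piRNA pathway, was 1.36.

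Bulk-seq of the testis suspensions was compared in the same way, with wider errors. Over the 337 higher-share members tested in both comparisons, the median SE of the log2 fold change was 0.416 in TBxCB and 0.306 in TPxCP, so a lack of calls does not show that a transcript was unchanged. Of 12939 rows tested in TBxCB no row was called by edgeR (0%), whereas 8.88% had an unadjusted p under 0.05, and DESeq2 called 11 rows (0.101%), none of them a higher-share member. Of the 367 higher-share members tested, 26 had an unadjusted p under 0.05, and of the 1585 lower-share members 148 did. The median log2 fold change was -0.16 for the higher-share members, -0.28 for the lower-share members and -0.05 over all rows. As a whole, the higher-share members thus did not stand out by a fall in bulk-seq. Their median differed with the share in cluster 10. It was -0.01 for members in under 20% of its cells and -0.07 for those in 20 to 50%. For members in 50 to 90% it was -0.35, and for those in 90% or more -0.39, with none called. TB library 2 stood apart, with correlations of 0.934 to 0.941 with the other bulk-seq libraries across rows, and without TB library 1, 698 rows were called, 6 of them higher-share members. In the deposited TBxCB table the counts are upside down relative to the accessions, and they were turned around before use. Its columns carry the prefix sc, which the labels give to the scRNA-seq libraries, and they were taken as CB and TB from the name of the table and their letter C or T. The number of a CB or TB library is that of its column and ties it to no labelled sample.

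The level of sycp1 was 3629, 2387 and 3888 CPM in CB and 3042 and 5370 CPM in TB, and the groups overlapped. For izumo1 the CB libraries held 183, 51.7 and 163 CPM and the TB libraries 93.9 and 162 CPM, a log2 fold change of -0.05 (adjusted p = 0.979, edgeR). The level of tssk6, which is not in the TPxCP table, was 102, 52.5 and 95.4 CPM in CB and 27.6 and 62.2 CPM in TB, a log2 fold change of -0.90 (adjusted p = 0.56, edgeR). CB library 2 was the lowest CB library for each of these 3 transcripts.

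On the 337 higher-share transcripts in both tables, the share of counts was 16.0, 8.89 and 10.6% in CP and 2.95 and 2.45% in TP. The same transcripts made up 12.8, 7.72 and 12.5% in CB and 10.0 and 12.5% in TB. The TP libraries thus lay below all CP libraries, whereas the TB libraries lay within the range of CB. The difference between the TCDD effects in both methods was tested as an interaction in 1 edgeR fit of all 4 groups over 4388 rows, a test added after the data had been seen. The fit took the 10 libraries as independent, although pseudo bulk-seq and bulk-seq libraries share suspensions. It called 191 of these 337 transcripts, all of them more negative in pseudo bulk-seq, where 6.15% of all rows were called in that direction and 0.843% in the other. Their median difference was -2.30 on the log2 scale, compared with 0.16 over all rows. The count rests on the TP libraries: it was 1 without TP replicate 2 and 71 without TP replicate 1, and it was 119 without CP replicate 1.

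**Figure D4:**
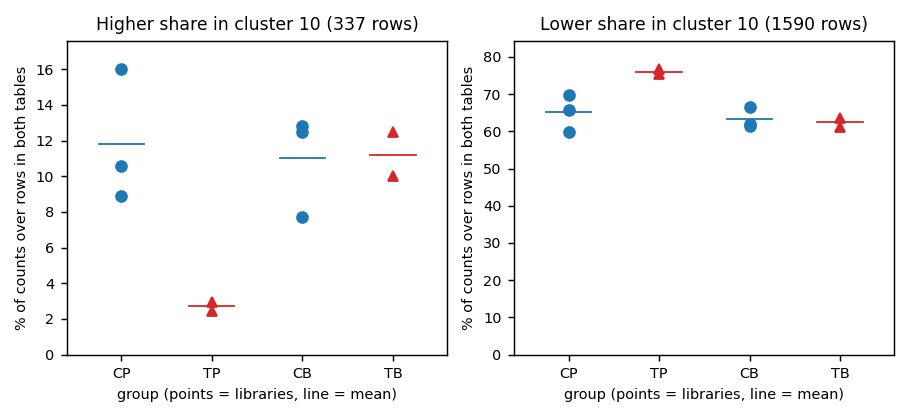
Percent of the counts over rows in both tables that fell in transcripts with a higher share (left) and a lower share (right) in cluster 10, by library, in pseudo bulk-seq (CP, TP) and bulk-seq (CB, TB). For the higher-share transcripts TP lies at 2.45 to 2.95%, below all CP libraries, while TB at 10.0 to 12.5% lies within the range of CB.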

How the data were processed

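scRNA-seq and bulk-seq of dissociated testes were analysed. The authors aligned single cell reads with Cell Ranger 6.01 (the submitters' processing notes name GRCz11, the study's methods dR10), kept cells with at least 500 features and clustered merged samples in Seurat 4.0.4. How doublets were treated is not given in the sources used here. The deposited cluster lists give the fraction of cells with a transcript, printed here in percent. Their fold changes and p-values, and those in the count tables, are the authors' own comparisons and were not used. The deposited TPxCP and TBxCB tables hold raw counts per RefSeq accession. The tables of CPxCB and TPxTB were not used (10 per-sample columns). The dissociated and intact libraries served only to check the row order of TBxCB, where counts correlated with their mean at -0.93 to -0.90 as deposited and at 0.91 to 0.97 reversed. Bulk-seq totals were 4828801 to 36172885 counts.

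Counts were tested in R 4.3.3 with edgeR 4.0.16 (filterByExpr, TMM, robust quasi-likelihood test, Benjamini-Hochberg adjustment over all rows tested), TP against CP and TB against CB, without a block. The fits were tested on simulated data. Alternatives were DESeq2 1.42.0, RLE size factors, library totals, no filter, the replicate number as a block (TPxCP), and leaving out each library. Symbols came from RefSeq records of assembly GRCz12tu by accession, for 86.6% of members. The members and gene lists were chosen with earlier results of these data known. Named transcripts were the 10 largest excesses and deficits in share, up to 4 members of each list by level, the 10 largest called changes in each direction, and the 10 largest excesses among those not listed for clusters 7 to 9. A few members are not reported here. Others, such as tssk6, pimr genes, ube2b, rps27l, tmem81, spag6, dnajb13, klhl10a, cart3, prc1b, ccnb1, plk1 and ift52, were chosen after their values were seen.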

Additional observations from a re-analysis of the deposited data

Results flagged for a closer look

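The TCDD effect differed between pseudo bulk-seq and bulk-seq, by the test of that difference, for 191 transcripts with a higher share in cluster 10. Of the 77 named transcripts in both tables, 16 were called more negative in pseudo bulk-seq and 1 more positive, where 6.15% and 0.843% of all rows were. The latter was h2az2b, a histone variant gene with a lower share in cluster 10, at a log2 difference of 3.40. Its bulk-seq counts were very low, with 1.83, 1.46 and 3.8 CPM in CB and 0.275 and 0 CPM in TB. In TPxCP its log2 fold change was 0.05. The named transcripts include the largest falls in TPxCP, values that this test reuses, so these counts are no separate support. Among those named for the largest differences in share or the largest changes, the log2 difference of the effects, pseudo bulk-seq minus bulk-seq, was -3.46 for tp53inp2a, -2.97 for nup42, -4.29 for lrrc51, -4.29 for pih1d2, -3.69 for pierce1 and -4.28 for izumo1, all at an adjusted p under 0.05 in edgeR's interaction test. Groups of 2 or 3 libraries are too small for a search for single libraries far from the rest.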

How the results depend on the processing

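The direction of the fall held under all 10 alternatives tried for TPxCP, and no called value of a named transcript changed sign. The fit without a filter is among them but repeats the main fit, as the filter removed no TPxCP row. The median log2 fold change of higher-share members ran from -2.47 to -2.01 without single libraries. With both TP libraries kept, none of these members was called higher. Their count of calls (502) was 515 with DESeq2, 501 with RLE, 497 with library totals, 524 with the replicate block, and 282 to 520 without single libraries. Of all TPxCP rows, 397 to 2853 were called without single libraries. Lower-share members called higher were 546 with the replicate block and 5 to 673 without single libraries, and those called lower 34 to 348. Deviations from the group mean correlated across rows at 0.257 between TP and CP replicate 1 and at 0.415 between TP and CP replicate 2. The deviations of 2 TP libraries mirror each other, so these 2 values are not independent. TP replicate 1 also correlated with CP replicate 3, at 0.215. The study's methods mention exposure experiments in blocks, and no source used here ties a replicate number to a block, so the pairing is unsettled. In TBxCB, DESeq2 called 11 rows, 4 of them lower-share members, and leaving out single libraries gave 0 to 698 rows, 0 to 6 higher-share and 0 to 187 lower-share members. In the test of the difference between methods, leaving out single libraries gave 1 to 1542 rows and 1 to 246 higher-share members. No paired analysis was possible for TBxCB because its columns match no single labelled sample, so the planned block was not run. Where 1 TP or TB library was left, it was assumed to vary like the controls. Transcripts listed for cluster 10 and not for 7, 8 and 9, in both directions, made up 2.28% of CP and 2.30% of TP counts, and those in no other list 0.667% and 0.709%. With a minimum of 25% of cells in either group, 439 members had a higher and 1203 a lower share. The cause of these changes was not tested. The least count of 30 in TPxCP limits what can be said of rare transcripts.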
